A study of Mus musculus with 3 samples.

Results

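The proteasome genes were taken as the protein-coding mouse genes of the GENCODE M21 annotation whose symbol starts with Psma, Psmb, Psmc, Psmd, Psme, Psmf or Psmg and a digit. The rule found 50 of 21951 protein-coding genes. One of them, Psmc3ip, is a cofactor of homologous recombination and no proteasome subunit, and it had no isoform in any library. Transcript structures of these genes were read from PacBio long-read libraries of CD4+ T cells from spleens and lymph nodes of male wild-type C57BL/6N mice, with 1 library per condition. The conditions were naive cells, cells activated with anti-CD3 and anti-CD28 antibodies for 48 h that had not divided (undivided), and cells activated in the same way for 48 h that had gone through 2 divisions, as read from the dilution of a dye. By the study's account, the undivided cells were a mixed population in their activation markers. The deposited data hold the exon positions of each isoform on GRCm38 with no read counts, so presence in a list is all that is known of an isoform and its abundance cannot be read. Each condition lacks replicates, and no test was made. Differences below compare libraries, not conditions, and fewer cells of a type cannot be told apart from less RNA per cell. A label places the naive library on another sequencing cell than both activated libraries, so the sequencing cell and activation cannot be told apart.

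The proteasome degrades proteins that carry chains of ubiquitin. Its 20S core is a barrel of alpha rings, which form the gate, and beta rings, which hold the proteolytic sites. The 19S cap binds ubiquitin, removes it and uses a ring of ATPases to unfold the substrate, while other activators open the gate without ubiquitin. In cells of the immune system the catalytic beta subunits are exchanged for inducible ones, which gives the immunoproteasome and shapes the peptides presented on MHC class I.

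Of all isoforms, 8768 in the naive library, 11468 in the undivided library and 10061 in the 2-division library were assigned to a protein-coding gene by shared splice sites. Each activated library listed 5 of 6 CD4 T cell markers, against all 6 in naive cells, and all 5 activation markers, against 2 in naive cells. Of 6 B cell markers, 5 were listed in naive cells with 20 isoforms in all, against 2 in undivided cells with 6 isoforms and 2 after 2 divisions with 5. Cd79a was listed in no library. At most 2 of 5 markers of CD8 T and NK cells, 1 of 6 myeloid markers and 1 of 3 erythroid markers were listed in any library.

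Proteasome genes were listed far more often than other genes. In naive cells 36 of 50 had an isoform (72.0%, 95% Clopper-Pearson interval 57.5% to 83.8%), against 20.2% of the 21901 other protein-coding genes of the annotation. Most of those other genes were listed in no library. Genes with a single exon cannot be assigned by splice sites, and neither they nor unexpressed genes were left out of these totals. In undivided cells 42 of 50 were listed (84.0%, 70.9% to 92.8%), against 24.1% of the others, and after 2 divisions again 42 of 50, against 22.3%. Of the 44 members listed in at least 1 library, 34 were listed in all 3 libraries (77.3%), where 50.4% of all such protein-coding genes were. These intervals cover counting error only.

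The number of isoforms of these genes was 59 in the naive library, 85 in the undivided library and 95 in the 2-division library. Per 1000 isoforms of protein-coding genes, proteasome genes held 6.73 in the naive library, 7.41 in the undivided library and 9.44 in the 2-division library. Other genes had fewer isoforms after 2 divisions than in undivided cells, 9966 against 11383. A listed member had 1.64 isoforms on average in the naive library, 2.02 in the undivided library and 2.26 in the 2-division library, while other listed genes had 1.97, 2.16 and 2.04 in the same order.

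**Figure D1:**
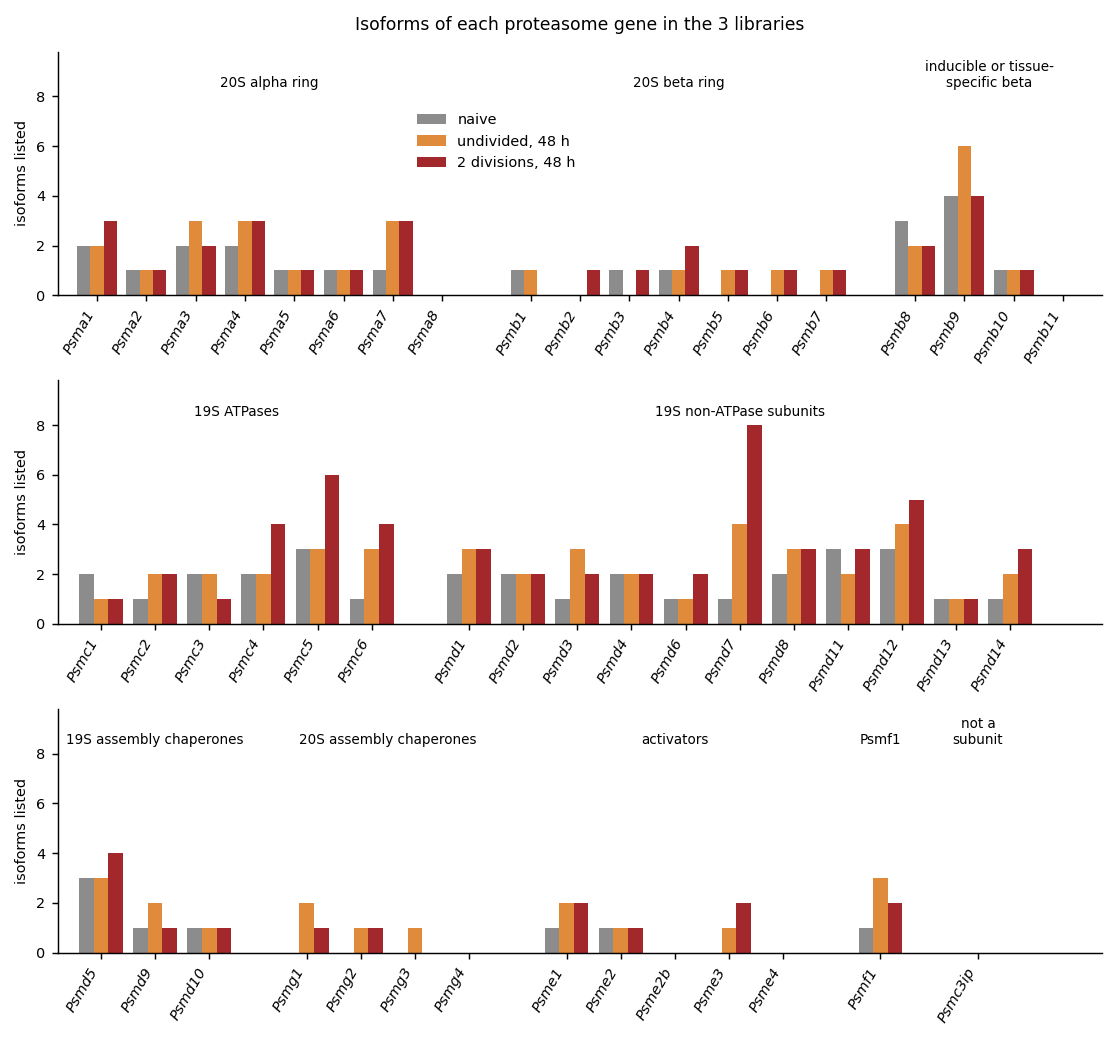
Number of isoforms listed for each of the 50 genes (vertical axis) in the naive, undivided and 2-division libraries (grey, orange and red bars), grouped by the role of the product; a missing bar is a count of 0. Psmd7 stands out with 1, 4 and 8 isoforms, and Psmb5, Psmb6 and Psmb7 have no grey bar.

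The alpha ring was nearly complete in each library. Psma1 to Psma7 were listed in all of them, with 10 isoforms in the naive library, 14 in the undivided library and 14 in the 2-division library. Psma8, the alpha subunit of the testis, was not listed. Psma7 had 3 isoforms in each activated library, against 1 in naive cells.

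Of the 7 constitutive beta ring genes, 1 was listed in all libraries, and both catalytic and structural subunits differed. Psmb6, Psmb7 and Psmb5 encode the constitutive subunits with the caspase-like, the trypsin-like and the chymotrypsin-like site. Each of these genes had 0 isoforms in the naive library, 1 in the undivided library and 1 in the 2-division library. The isoform had the annotated chain of introns and the whole coding sequence of 238 codons for Psmb6, 277 for Psmb7 and 264 for Psmb5 in both activated libraries. The structural subunits Psmb1, Psmb3 and Psmb4 were listed in naive cells with 1 isoform each. Psmb1 was also listed in undivided cells, Psmb3 after 2 divisions and Psmb4 in both. Psmb2 had 1 spliced isoform, after 2 divisions only.

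The inducible counterparts were listed in every library. Psmb9, Psmb10 and Psmb8 replace Psmb6, Psmb7 and Psmb5 in the immunoproteasome. Psmb9 had 4 isoforms in the naive library, 6 in the undivided library and 4 in the 2-division library, Psmb8 had 3, 2 and 2, and Psmb10 had 1 in each. Psmb11, the subunit of the thymic cortex, has a single exon and could not be assigned by splice sites, and no single-exon isoform overlapped it. B cells also carry immunoproteasomes, and B cell markers had 20 isoforms in the naive library against 6 and 5 in the activated ones. Their part in these lists was not tested.

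Beside the catalytic subunits, 3 genes of other roles were listed in both activated libraries and not in naive cells. These were Psme3, which encodes the nuclear activator PA28gamma, and Psmg1 and Psmg2, whose products form a chaperone pair that assembles the alpha ring. Psme3 had 0 isoforms in the naive library, 1 in the undivided library and 2 in the 2-division library. Psmg1 had 0, 2 and 1, and Psmg2 had 0, 1 and 1. The 6 genes are 13.6% of the 44 listed members, and 15.2% of all 6523 listed protein-coding genes showed the same pattern, so the share is near the background. No member was listed in naive cells and in neither activated library, which allows a share of up to 8.04%, while 8.39% of all listed genes were.

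All Psmc and Psmd members of the 19S cap were listed in each library, while Sem1, a small cap subunit outside the symbol rule, was listed in none. All 6 ATPases had isoforms, 11 in the naive library, 13 in the undivided library and 18 in the 2-division library. The 11 non-ATPase subunits had 19, 27 and 34 isoforms, and the 3 chaperones of cap assembly, Psmd5, Psmd9 and Psmd10, had 5, 6 and 6. None of the 4 chaperones of the core, Psmg1 to Psmg4, was listed in naive cells. Of the activators, Psme1 and Psme2, which form the interferon-inducible PA28alphabeta ring, were listed in all libraries, and Psme4, whose reference transcript has 47 exons and 6491 nt, and the intronless Psme2b in none. Psmf1, a regulator that binds the core, had 1, 3 and 2 isoforms.

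For single genes, a change was counted where the numbers of isoforms differed by at least 2-fold and by at least 2 isoforms. Against naive cells, 6 of 43 members had more isoforms in undivided cells (14%, background 16.6% of all protein-coding genes listed in either library), and 7 of 43 had more after 2 divisions (16.3%, background 13.8%). Psma7, Psmc6 and Psmd7 were in both lists. Some isoforms of Psma7 and Psmd7 in the activated libraries ended before the stop codon at sites followed by at least 12 A in 20 nt. Psmd3, Psmf1 and Psmg1 passed in undivided cells alone, and Psmc4, Psmc5, Psmd14 and Psme3 after 2 divisions alone. No member had at least 2-fold fewer isoforms in undivided cells (0 of 43, up to 8.22%, background 6.99%) or after 2 divisions (0 of 43, up to 8.22%, background 8.93%). After 2 divisions 3 members had more isoforms than in undivided cells (6.82% of 44, background 4.67%) and none had fewer (0 of 44, up to 8.04%, background 8.53%). The shares with more isoforms lay near the background. For those with fewer, the upper limit held the background in undivided against naive cells and lay just under it in the other 2 comparisons. A gene with under 2 isoforms in the library it is compared with cannot be counted as having fewer. In naive cells 16 of 36 listed members and 1932 of 4422 other listed genes had at least 2. In undivided cells 25 of 42 members and 2635 of 5281 other genes did. Asking for a difference of at least 3 isoforms, or scaling the libraries to the same total, left 1 member with more isoforms in undivided cells and 3 after 2 divisions, each against naive cells.

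Psmd7 had the steepest difference. Its product, Rpn8, is the partner of the cap's deubiquitinase. Psmd7 had 1 isoform in the naive library, 4 in the undivided library and 8 in the 2-division library. In undivided cells 3 of the 4, and after 2 divisions 4 of the 8, ended before the stop codon at sites followed by at least 12 A in 20 nt. Psmc5 and Psmc4 encode ATPases of the cap. Psmc5 had 3, 3 and 6 isoforms and Psmc4 had 2, 2 and 4. Psmc6, another ATPase of the ring, had 1, 3 and 4, and Psmd14, the deubiquitinase itself, had 1, 2 and 3. At the other end, 7 members had 1 isoform in each library. These were Psma2, Psma5, Psma6, Psmb10, Psmd10, Psmd13 and Psme2. In 6 of them the 3′ end lay within 5 nt in all libraries, and in Psmb10 within 14 nt.

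Unannotated splice sites were rare in proteasome genes. Of 376 distinct introns, 374 were annotated for the gene. An unannotated splice site was found in 0 of 59 isoforms in the naive library (which allows a share of up to 6.06%), 0 of 85 in the undivided library (up to 4.25%) and 1 of 95 in the 2-division library (1.05%, 0.0266% to 5.73%), the last of them an isoform of Psmd11. In other protein-coding genes the shares were 9.38%, 8.46% and 7.23%. The annotated chain of introns was seen in 71.2% of member isoforms in the naive library (57.9% to 82.2%), 72.9% in the undivided library (62.2% to 82.0%) and 66.3% in the 2-division library (55.9% to 75.7%). Each interval held the value of other genes, 61.4%, 62.4% and 63.9%. Over the libraries there were 96 distinct chains, of which 42 were found in all 3 libraries, 16 in 2 and 38 in 1. Of the last, 7 were found in naive cells alone, 9 in undivided cells alone and 22 after 2 divisions alone. The libraries held 59, 85 and 95 member isoforms in the same order. Chains were not counted in this way for other genes, so these numbers cannot be called particular to proteasome genes.

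Exon skipping was rare. It was found in 1 of 59 isoforms in the naive library (1.69%, 0.0429% to 9.09%), 2 of 85 in the undivided library (2.35%, 0.286% to 8.24%) and 0 of 95 in the 2-division library (up to 3.81%), against 7.41%, 6.98% and 6.10% in other genes. Only the interval after 2 divisions left out the value of the other genes. Both events shift the reading frame. In Psmd5, which encodes a chaperone that holds back cap assembly, exon 2 of 10 (chr2:34866893-34867037, minus strand, 145 nt) was skipped in 1 isoform in naive cells and 1 in undivided cells, joining annotated splice sites in a pairing that no annotated transcript has. Reading from the annotated start gave 78 codons in place of 504, with the stop 875 nt before the last exon junction. In Psmf1, exon 3 of 7 (chr2:151734222-151734304, minus strand, 83 nt) was skipped in 1 isoform in undivided cells, by an annotated intron, which left 96 codons of 271.

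**Figure D2:**
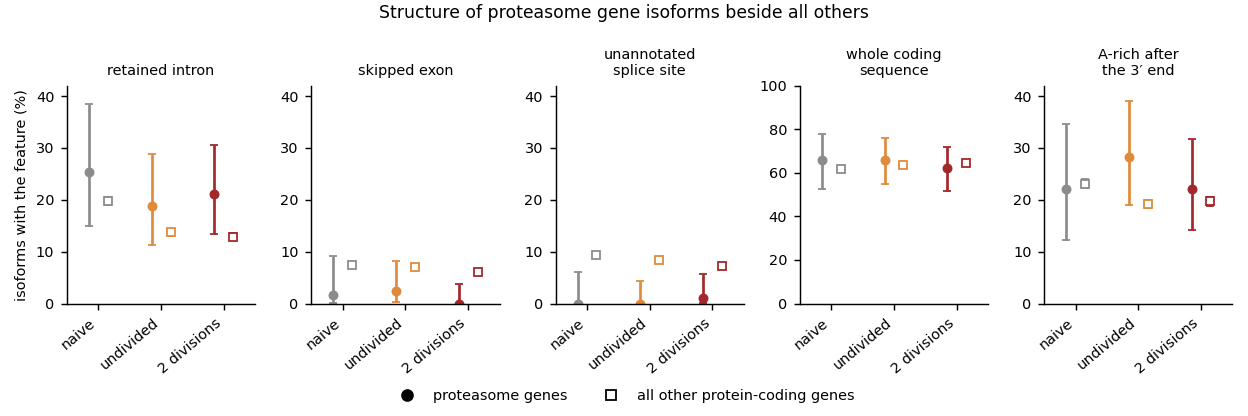
Share of isoforms with each feature, in percent, in proteasome genes (filled circles) and all other protein-coding genes (open squares) for the naive, undivided and 2-division libraries; bars are 95% Clopper-Pearson intervals, and the panel of whole coding sequences has its own axis to 100%. Unannotated splice sites and skipped exons lie lower in proteasome genes and retained introns lie higher, but several of the members' bars reach the squares.

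Retained introns were the common departure. An intron of an annotated coding transcript lay whole within an exon in 15 of 59 member isoforms in the naive library (25.4%, 15.0% to 38.4%), 16 of 85 in the undivided library (18.8%, 11.2% to 28.8%) and 20 of 95 in the 2-division library (21.1%, 13.4% to 30.6%). In other protein-coding genes the shares were 19.8%, 13.7% and 12.9%. The members' interval held the value of the other genes in naive and undivided cells and lay just above it after 2 divisions. At the level of genes, 10 of 36 listed members had such an isoform in the naive library (27.8%, 14.2% to 45.2%, other genes 23.2%). In the undivided library 14 of 42 did (33.3%, 19.6% to 49.5%, other genes 18.8%), and in the 2-division library 13 of 42 (31.0%, 17.6% to 47.1%, other genes 17.6%). By gene, the interval held the value of other genes in naive cells and lay just above it in undivided cells. After 2 divisions its lower limit met that value at the digits given.

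Counted by intron, 39 of 368 introns of the reference transcripts that were covered in these genes were retained in at least 1 isoform (10.6%, 7.65% to 14.2%), against 3.80% of 61456 introns in other genes. They lay in 17 genes, and all 39 were spliced out in some other isoform of the gene. An intron was counted if any isoform of any library retained it. Members were listed in all 3 libraries more often, 77.3% against 50.4% of all protein-coding genes listed in at least 1 library. The part of this in the difference was not tested. One isoform of Psme1 after 2 divisions, with 2 exons, held 9 of the 39, and without it 31 remained (8.42%, 5.80% to 11.7%). The median length of retained introns was 195 nt, against 892 nt for introns that were only spliced. Without the Psme1 isoform these medians were 440 nt and 861 nt, and in other genes they were 348 nt and 1203 nt. Among introns of up to 150 nt, 14 of 66 were retained (21.2%, 12.1% to 33.0%), or 9 without the Psme1 isoform (13.6%, 6.43% to 24.3%), against 8.51% in other genes, which lies inside the interval without that isoform. Among introns over 1000 nt, 6 of 163 were (3.68%, 1.36% to 7.84%), against 1.23%.

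**Figure D3:**
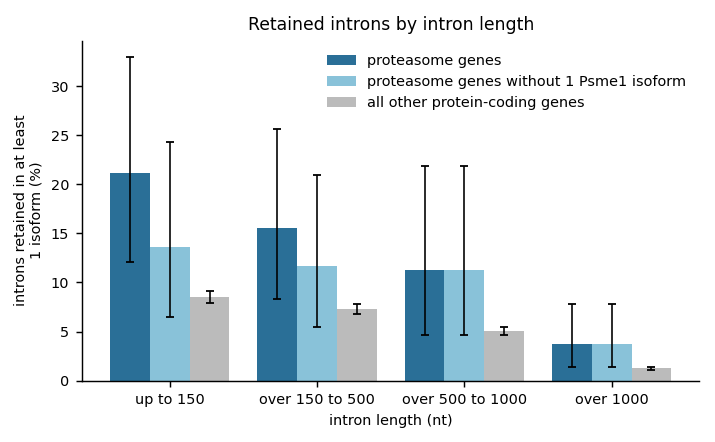
Percent of reference introns retained in at least 1 isoform of any library (vertical axis) by intron length in nt (horizontal axis), for proteasome genes (dark blue), the same without 1 Psme1 isoform that held 9 retained introns (light blue) and all other protein-coding genes (grey); bars on the columns are 95% Clopper-Pearson intervals. In other genes the share is 8.51% in the shortest class and 1.23% in the longest, and it lies higher in proteasome genes in each class.

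Most of the 39 introns were retained in 1 library only, and some came back in separate libraries. Of the 39, 8 were retained in all 3 libraries, 7 in 2 and 24 in 1. How often introns of other genes came back was not counted. The 8 lay in Psma3, Psmb9, Psmc4, Psmc5, Psmd4 and Psmd11. Psma3 and Psma4 encode alpha subunits. In Psma3, intron 4 (chr12:70984595-70984671, plus strand, 77 nt) was retained in 1 isoform in each library, beside 1, 2 and 1 isoforms that spliced it. In the ATPase gene Psmc5, intron 8 (chr11:106262503-106262580, plus strand, 78 nt) was retained in 2 isoforms in the naive library, 1 in the undivided library and 3 in the 2-division library, and spliced in 1, 2 and 3. In Psmc4, intron 8 (chr7:28042508-28042649, minus strand, 142 nt) was retained in 1, 1 and 2 isoforms and spliced in 1, 1 and 2. An annotated transcript also retains each of these introns, and the others of the 8 except intron 4 of Psmb9. The splice sites of the shortest retained introns in Psma3, Psmc5 and Psme1 are shown because these are the introns left in and taken out side by side. Exon is in lower case and intron in capitals, 5′ to 3′, with 10 nt of exon and 20 nt of intron from the GRCm38 sequence.
Psma3 intron 4, 5′ splice site: tcctctaaaaGTAAGTTGACAAATATGCTG
Psma3 intron 4, 3′ splice site: GTCTCTTCTCTTCCTCCCAGcatcttgcag
Psmc5 intron 8, 5′ splice site: caacgaggagGTCTGTGCTGGAGGTGCCTG
Psmc5 intron 8, 3′ splice site: CTTTCTTCTCTTATCCCTAGgcccggctgg
Psme1 intron 4, 5′ splice site: gcaacaggagGCAAGCTGGGAGACCTGGGA
Psme1 intron 4, 3′ splice site: TCCTGTCTTCCTCCCTACAGaaggaagaga
The intron of Psme1 (chr14:55580042-55580113, plus strand, 72 nt) begins with GC and not GT, alone among the 39. It was retained in 1 isoform in undivided cells and 1 after 2 divisions and spliced in 1 isoform of each library.

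In most cases that could be read, a retained intron shortened the reading frame. For 18 of the 39 an isoform retained that intron alone and held the annotated start codon, and in 17 of them the reading frame ended before the annotated length. In 14 of the 17 the stop lay over 50 nt before the last exon junction, a position known to expose a transcript to nonsense-mediated decay. In Psma3 the frame held 112 codons of 255, with the stop 461 nt before the last junction. In Psmc5 it held 348 codons against 406, with the stop 198 nt before the last junction, and in Psmc4 307 against 418, with the stop 361 nt before it.

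The retained intron was the last of the transcript in 7 cases. In Psmd4, the ubiquitin receptor Rpn10, intron 9 (chr3:95032985-95033481, minus strand, 497 nt) was retained in 1 isoform and spliced in 1 isoform in each library, and the frame of the retaining isoform held 368 codons in both activated libraries, against 365 in naive cells. The spliced isoforms held 379. In the activated libraries the isoform with 368 codons has the whole coding sequence of another annotated transcript. In Psma1, the last intron (chr7:114264957-114266433, minus strand, 1477 nt) was retained in 1 isoform in naive cells and 1 in undivided cells and in none after 2 divisions, with 254 codons against 263. In Psmd11, which encodes the cap subunit Rpn6, intron 13 (chr11:80471595-80471709, plus strand, 115 nt) lies beyond the stop codon. It was retained in 1 isoform in each library, and the 422 codons stayed whole.

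The remaining events were seen in fewer libraries. In Psma4, intron 6 (chr9:54954970-54956256, plus strand, 1287 nt) was retained in 1 isoform in naive cells and 1 in undivided cells and in none after 2 divisions. In Psmd3, the cap subunit Rpn3, intron 5 (chr11:98690654-98690915, plus strand, 262 nt) was retained in 1 isoform in each activated library and in none in naive cells. Psma1 retained intron 5 (650 nt) after 2 divisions alone. Psmb8 had retained introns in all libraries, but no intron of the reference transcript in all 3. Psmc1 had one in naive cells alone, Psmc3 and Psmg1 in undivided cells alone, Psmd6 and Psmd7 after 2 divisions alone, and Psmc2 had a different one in each activated library.

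Psmb9 had the most isoforms of all members, 14 over the libraries, and the most varied. The gene lies on the minus strand of chromosome 17 in the MHC, next to Tap1, which encodes a subunit of the peptide transporter and is transcribed the other way. A retained intron was found in 3 of 4 isoforms in the naive library, 3 of 6 in the undivided library and 3 of 4 in the 2-division library. Intron 3 (chr17:34183745-34184281, 537 nt) was retained in 3, 3 and 2 isoforms and intron 4 (chr17:34183231-34183614, 384 nt) in 2 of each library. With intron 3 alone retained, the frame held 93 codons of 219. The fully spliced coding sequence was found in 1 isoform in the naive library, 3 in the undivided library and 1 in the 2-division library.

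The isoforms of Psmb9 also began at different places. Of the 14, 11 began between 167 and 215 nt outside the annotated start of Tap1. The other 3, all fully spliced, began 1146 and 1181 nt inside Tap1 in undivided cells and 1176 nt inside it after 2 divisions, at 935 nt or more from the nearest annotated start of Psmb9. Each of these shared 853 nt with exons of Tap1 on the opposite strand. No isoform in naive cells did. Tap1 itself had 6 isoforms in the naive library, 5 in the undivided library and 5 in the 2-division library.

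**Figure D4:**
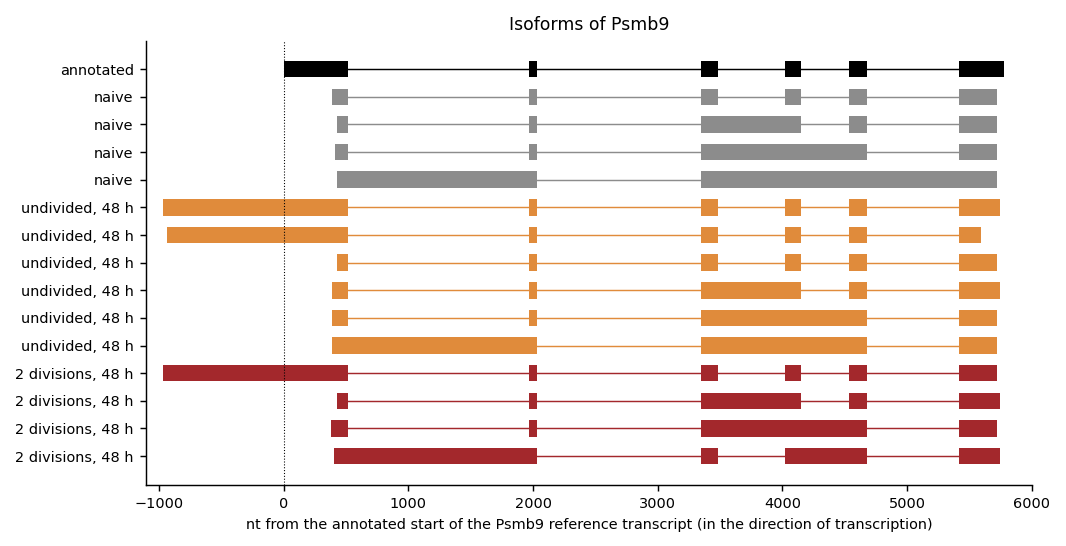
Exons (boxes) and introns (lines) of the annotated reference transcript of Psmb9 (black) and of its 4 naive, 6 undivided and 4 2-division isoforms (grey, orange and red), in nt from the annotated start. A long box over introns is a retained intron; 3 isoforms of the activated libraries begin left of 0, and none of the naive library does.

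Most listed members had an isoform with a whole annotated coding sequence. This was so for 33 of 36 in the naive library, 40 of 42 in the undivided library and 40 of 42 in the 2-division library, or 91.7%, 95.2% and 95.2%, against 84.9%, 87.7% and 88.0% of other listed genes. By isoform the shares were 66.1% in the naive library (52.6% to 77.9%), 65.9% in the undivided library (54.8% to 75.8%) and 62.1% in the 2-division library (51.6% to 71.9%), close to the 61.7%, 63.7% and 64.7% of other genes. The exceptions were Psmc2 and Psmd1 in all libraries and Psmc3 in naive cells. Psmc2 isoforms began at least 1468 nt from its annotated start, after the annotated start codon. They ended 58 or 83 nt past the annotated stop codon. Reading frames were read from the start codon of the reference transcript only. Whether these isoforms hold a coding sequence from a later start codon was therefore not tested.

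Psmd1, which encodes the large cap scaffold Rpn2, has 25 exons and 953 codons. It had 2 isoforms in the naive library, 3 in the undivided library and 3 in the 2-division library, and 7 of the 8 ended inside the coding sequence after 21 or 22 exons. The end at chr1:86130707 was found in all libraries and had neither AATAAA nor ATTAAA in the last 50 nt. Psmd2, the other large scaffold (Rpn1), had an isoform of 15 exons that ended inside the coding sequence at chr16:20660036, beside the whole isoform of 21 exons, in each library. For these ends and one of Psmd7, the last 10 nt of the exon are given in lower case and the 20 nt after the end in capitals, 5′ to 3′ on the strand of the gene, because these ends have no poly(A) signal and are followed by stretches of A.
Psmd1, chr1:86130698-86130727, plus strand: tggaagtaccAAAAGAAAAAGAAAAGGAAA
Psmd2, chr16:20660027-20660056, plus strand: ggaggaagacAAAGACAAGAAGGAAAAGAA
Psmd7, chr8:107580935-107580964, minus strand: agcaagaaggAGAGAAAAGACGACAAAGAG
The windows after these ends held 16 A in 20 nt in Psmd1, 14 in Psmd2 and 12 in Psmd7. At least 12 A after the end was found in 22.0% of member isoforms in the naive library (12.3% to 34.7%), 28.2% in the undivided library (19% to 39.0%) and 22.1% in the 2-division library (14.2% to 31.8%), against 23.1%, 19.1% and 19.7% in other genes.

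After merging within 24 nt, the members had 43 distinct 3′ ends in the naive library, 64 in the undivided library and 65 in the 2-division library, and 73 in all. Of these 40 were found in all libraries, 17 in both activated libraries and not in naive cells, and 1 in naive cells alone. Of the 73, 56 were not followed by an A-rich stretch and 50 of these had AATAAA or ATTAAA in the last 50 nt. Of the 17, 5 were followed by an A-rich stretch. For the 34 members listed in all libraries, 11 of 63 ends were found in both activated libraries and not in naive cells (17.5%, 9.05% to 29.1%), against 9.94% of 6480 ends in other genes listed in all libraries. The interval held the value of the other genes. The 11 include ends of Psma7, Psmb9 and Psmd7 that were followed by an A-rich stretch, and those of Psma7 and Psmd7 lay before the stop codon. In naive cells alone 1 of the 63 was found (1.59%, 0.0402% to 8.53%), against 9.46% in the other genes. That end belongs to Psmd11, at chr11:80473244, with AATAAA 21 nt before it.

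For terminal exons that begin at the same splice site, the mean length was compared between libraries and a change of over 100 nt was counted. Between undivided and naive cells 4 of 40 terminal exons of members were shorter (10%, background 13.0% of 3898) and 2 longer (5.0%, background 5.67%). Between 2 divisions and naive cells 3 of 39 were shorter (7.69%, background 13.5%) and 1 longer (2.56%, background 4.79%). Between 2 divisions and undivided cells 3 of 44 were shorter (6.82%, background 8.41%) and 1 longer (2.27%, background 6.95%). Within 24 nt were 72.5%, 82.1% and 79.5% of the members' terminal exons in these comparisons, against 72.6%, 73.3% and 76.2% in other genes. The 6 counts come from the same 3 libraries, and the 95% interval of each share held its background. By the longest in place of the mean terminal exon, 0 members were shorter in undivided cells and 0 after 2 divisions, each against naive cells, because the distal end was still listed.

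**Figure D5:**
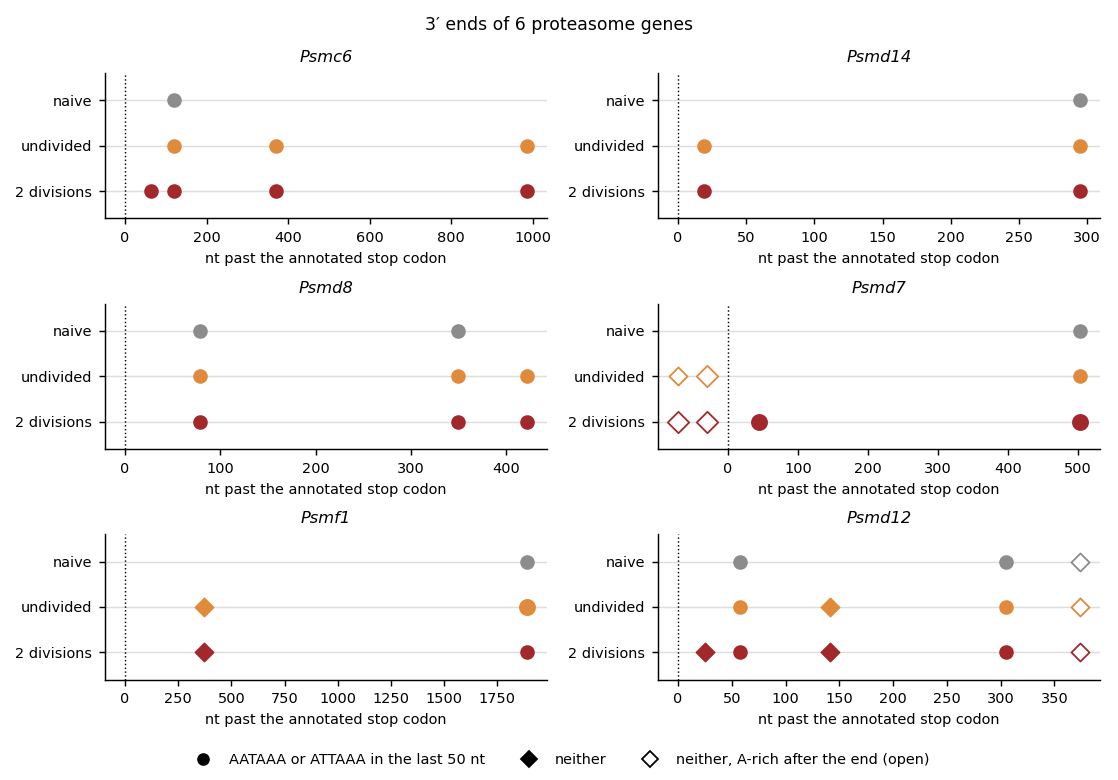
Merged 3′ ends of 6 genes in nt past the last base of the annotated stop codon (horizontal axis, dotted line at 0) in the naive, undivided and 2-division libraries (rows from top to bottom); larger symbols stand for more isoforms. Circles have AATAAA or ATTAAA in the last 50 nt, diamonds have neither, and open symbols are followed by at least 12 A in 20 nt. The open symbols of Psmd7 lie before the stop codon, and Psmd14 and Psmf1 have a proximal end in the activated libraries only; an end of Psmd14 inside an intron after 2 divisions is not drawn.

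Psmd14, Psmd7 and Psmf1 had shorter terminal exons in both activated libraries than in naive cells. Psmd14 had terminal exons of 118 and 394 nt in each activated library, against 394 nt in naive cells, a mean difference of -138 nt in both comparisons. The proximal end lay 19 nt past the stop codon, with its own AATAAA, so that nearly the whole 3′ UTR of 295 nt was left out. Psmf1 had terminal exons of 425, 1943 and 1943 nt in undivided cells and 425 and 1943 nt after 2 divisions, against 1941 nt in naive cells. Its means differed by -504 nt between undivided and naive cells and by -757 nt between 2 divisions and naive cells. The proximal end of Psmf1 had neither signal in the last 50 nt and 2 A in the 20 nt after it, and lay 4 nt from an annotated end.

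Psmd7 had a single end in naive cells, 503 nt past the stop codon. Its terminal exons measured 358, 405, 406 and 939 nt in undivided cells, against 939 nt in naive cells (difference of means -412 nt). After 2 divisions 7 isoforms had lengths between 365 and 939 nt (difference -448 nt). In undivided cells the 3 short ones, and after 2 divisions 4 of the 6 short ones, ended before the stop codon at sites followed by at least 12 A in 20 nt. The other 2, at chr8:107580840, lay 44 nt past the stop codon with ATTAAA 19 nt before the end, and were found after 2 divisions alone. One more isoform after 2 divisions retained the last intron and used the distal end.

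Psmc6 went the other way. In naive cells it ended 119 nt past the stop codon. In undivided cells ends at 371 and 1002 nt were added, and after 2 divisions ends at 63, 371 and 986 nt, of which the last was merged with that at 1002 nt. Mean terminal exons were 616 nt in undivided cells, against 238 nt in naive cells (difference 378 nt), and 504 nt after 2 divisions, against 238 nt in naive cells (difference 266 nt). All 8 isoforms of Psmc6 had the same chain of 14 exons and the whole coding sequence of 389 codons, so they differed in the 3′ UTR and by some nt at the 5′ end. Psmd8, which encodes the cap subunit Rpn12, had an end 422 nt past the stop codon in the activated libraries alone, beside ends at 79 and 349 nt that were found in all libraries, and its mean moved by 66 nt, under the 100 nt of the rule. The last 30 nt are given for those ends of Psmc6, Psmd14, Psmd8 and Psmd7 that have a poly(A) signal of their own. Ends of Psmd7 and Psmd14 without a signal are left out. The GRCm38 sequence is written 5′ to 3′ on the strand of the gene, with the signal nearest to the end in capitals.
Psmc6, 63 nt past the stop, chr14:45348735-45348764, plus strand: cattggtttaatgtaaaAATAAAgttaagg
Psmc6, 119 nt past the stop, chr14:45348791-45348820, plus strand: cttattaaaagtgAATAAAcatgtataagc
Psmc6, 371 nt past the stop, chr14:45349043-45349072, plus strand: aagcAATAAAatctgttttaagttgtccta
Psmc6, 986 nt past the stop, chr14:45349658-45349687, plus strand: tttaAATAAAgacatcaaacttcagtttca
Psmd14, 19 nt past the stop, chr2:61800070-61800099, plus strand: tatttaAATAAAgtgacgtagagagctgtc
Psmd14, 295 nt past the stop, chr2:61800346-61800375, plus strand: tgcttacaaAATAAAatacatttacaatcc
Psmd8, 79 nt past the stop, chr7:29174531-29174560, minus strand: ctggccttcAATAAAggcagattaacctct
Psmd8, 349 nt past the stop, chr7:29174261-29174290, minus strand: aaaatgttggccgtggATTAAAtaattttt
Psmd8, 422 nt past the stop, chr7:29174188-29174217, minus strand: agccctctgtAATAAAtggtatgaatcctg
Psmd7, 44 nt past the stop, chr8:107580840-107580869, minus strand: ttaattagtaaATTAAAatcttataaccat
Psmd7, 503 nt past the stop, chr8:107580381-107580410, minus strand: tcaaagatacaATTAAAtggcttggttttt

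Psmd12, Psmd9 and Psma3 had other patterns. Psmd12, the cap subunit Rpn5, had the most ends, 3 in the naive library, 4 in the undivided library and 5 in the 2-division library, all past the stop codon, and 2 of the 5 had a poly(A) signal. Psmd9 had an end 206 nt past the stop codon, with ATTAAA, in undivided cells alone, beside the end at 641 nt in all libraries. Its mean terminal exon was 452 nt in undivided cells, against 669 nt in naive cells (difference -218 nt), and 669 nt after 2 divisions. Psma3 had a longer isoform in undivided cells alone, 526 nt past the stop codon, at an annotated end followed by 20 A in 20 nt and without a signal. Its mean was 291 nt in undivided cells, against 151 nt in naive cells (difference 140 nt).

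Some isoforms began inside their gene, at the same base or 1 nt apart in separate libraries. A start over 100 nt from every annotated start was found in 3.39% of member isoforms in the naive library (0.413% to 11.7%), 10.6% in the undivided library (4.96% to 19.2%) and 14.7% in the 2-division library (8.30% to 23.5%), against 8.74%, 13.4% and 14.4% in other genes. Each of these intervals held the share of other genes. Psma7 had an isoform of 4 exons from chr2:180038166 in both activated libraries. Psmc5 had one of 8 exons from chr11:106261198 in undivided cells and from chr11:106261197 after 2 divisions. Psmd7 had isoforms of 6 exons from chr8:107586700 in both activated libraries. None of these held the annotated start codon, and none was listed in naive cells. Other such starts were listed in naive cells too, in Psmc2 and Psma5. Psmc2 had an isoform from chr5:21786772 in naive cells and after 2 divisions, 1489 nt from the nearest annotated start. Psma5 had one from chr3:108257163 in naive cells, 237 nt from the nearest annotated start, and from chr3:108257164 after 2 divisions.

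Among 28 other genes of the ubiquitin and proteasome pathway, 14 were listed in naive cells with 26 isoforms, 18 in undivided cells with 39 and 17 after 2 divisions with 42. By the 2-fold rule 2 of 18 had more isoforms in undivided than in naive cells (Rad23b and Vcp, background 16.6%) and 1 had fewer (Adrm1, background 6.99%). After 2 divisions 4 of 18 had more than in naive cells (Usp14, Rad23b, Vcp and Rps27a, background 13.8%) and none had fewer (background 8.93%). With so few genes these counts are given as values only. Vcp, the ATPase that extracts ubiquitinated proteins, had 4 isoforms in the naive library, 9 in the undivided library and 8 in the 2-division library. Rad23b, a shuttle that carries ubiquitinated proteins to the proteasome, had 0, 3 and 3. Usp14, the deubiquitinase bound to the cap, had 2, 2 and 5, and Adrm1, the ubiquitin receptor Rpn13, had 3, 1 and 3. Pomp, the chaperone that completes the core, had 1 isoform in each library. Nfe2l1, the transcription factor of proteasome genes, had 0, 1 and 1. Tap1, Tap2 and Tapbp, which serve the transport and loading of peptides on MHC class I, held 15 isoforms in the naive library, 15 in the undivided library and 13 in the 2-division library, and Tapbp alone of them passed the rule, with 6 in undivided cells against 3 in naive cells.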

How the data were processed

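PacBio long-read transcript models of 3 libraries were used. By the methods of the paper, ccs gave the authors' consensus reads, lima took off primers, isoseq3 refined, clustered and later collapsed the polyadenylated reads, pbmm2 aligned the clusters and SQANTI3 annotated them. The submitters' processing notes add minimap2 and Subread, with mm10 and GRCm38 as builds. The deposited files hold positions of exons and no counts, which are the only values used, so depth is known only as the number of isoforms, 10527 in the naive, 12602 in the undivided and 11109 in the 2-division library.

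Multi-exon isoforms were assigned to the GENCODE M21 gene on the same strand that shared most splice sites. The paper names a later release, which may hold splice sites counted as unannotated here. Of the distinct introns on reference chromosomes, 96.2% were annotated. No gene was assigned to the 96 naive, 113 undivided and 96 2-division isoforms on patch or unplaced sequences. The reference transcript is the coding one tagged as principal or, failing that, with the longest coding sequence. Ends within 24 nt were merged. Signals were AATAAA or, failing that, ATTAAA on the strand of the gene in the last 50 nt, and ends followed by 12 or more A within 20 nt were called A-rich. Shares have exact Clopper-Pearson intervals at 95%, and isoforms of 1 gene are not independent. No p-value was computed, since each condition has 1 library. The functions were tested on simulated isoforms. Some sequences at 3′ ends are not reported here.

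The members, gene lists, rules and alternatives were chosen with earlier results of these data known. By the rule for named genes, values are given for members listed in both activated libraries and not in naive cells or the reverse, the 8 with the most isoforms, those past the 2-fold rule against naive cells in both activated libraries in the same direction, up to 10 with a retained intron and 10 with a skipped exon, and those with a moved terminal exon. Other genes named, such as those that began inside the gene or had 1 isoform in each library, were chosen after their values were seen. Python 3.11.15, scipy 1.17.1, numpy 2.4.6, pysam 0.24.0 and matplotlib 3.10.9 were used.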

Additional observations from a re-analysis of the deposited data

How the results depend on the processing

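Of the alternatives run, 75 of 95 values were within the limits set (within 1.5 times for counts and medians, within the 95% interval for shares and ratios), and no ratio of isoform numbers turned round. Asking for at least 2 isoforms left 16 genes in the naive library, 25 in the undivided library and 25 in the 2-division library. With a difference of at least 3 isoforms, 1 member had more in undivided and 3 after 2 divisions against naive cells, and with totals scaled the counts were also 1 and 3. Leaving out introns that annotated transcripts retain gave 13.6%, 9.41% and 12.6% of isoforms with a retained intron (other genes 8.98%, 5.60% and 4.89%). By the longest terminal exon 0 were shorter in undivided and 0 after 2 divisions against naive cells, since the long end was still listed, and between 2 divisions and undivided cells 1 was shorter and 0 longer. With a limit of 50 nt, 5 were shorter and 2 longer after 2 divisions against naive cells and 2 longer against undivided cells, and with 200 nt 1 was longer in undivided against naive cells and 1 shorter after 2 divisions against undivided cells. Leaving out the Psme1 isoform, chosen after seeing the data, gave a median retained intron of 440 nt in place of 195 nt. No paired analysis was possible because each condition has 1 library, and for the same reason no replicate could be left out. Isoform numbers depend on depth, which the deposited data do not give, and an unlisted gene may be expressed.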

Other observations

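Unspliced models were kept out of the comparisons. Psmb2, a structural subunit of the beta ring, had no spliced isoform in naive cells, but 1 single-exon model each in naive cells and after 2 divisions. They began at chr4:126677667, at the first base of the spliced isoform, and ended in the first intron at chr4:126678928 in naive cells and chr4:126679405 after 2 divisions, each with 14 A in the next 20 nt and no poly(A) signal. Psmb9 had 1 single-exon model of 2329 nt in naive cells, which covered 2 introns and ended with 14 A in the next 20 nt.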
